A study of Mus musculus with 6 samples.

Results

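Granzymes are the serine proteases that killer lymphocytes store in secretory granules. Of the mouse granzyme genes, 9 were followed: Gzma, Gzmb, Gzmc, Gzmd, Gzme, Gzmf, Gzmg, Gzmn and Gzmk. They were taken per gene and as the sum of Gzmd, Gzme, Gzmf, Gzmg and Gzmn, whose transcripts end in similar sequence. A further granzyme gene, Gzmm, was kept apart and did not pass the test for a difference. The 9 genes were chosen by name, with earlier results of these data known. All 9 were among the 25654 gene identifiers with values. The cells were wild-type CD8 T cells from spleens of female C57BL/6 mice, aged 6 weeks (Young) or about 65 weeks (Aged). In both groups they were isolated with a CD8 kit, held for 2 days on plate-bound antibodies to TCR beta (3 μg/ml) and CD28 (1 μg/ml) with IL-2 at 10 ng/ml, and then moved to new plates with IL-2 for 5 days, 7 days in all. There were 3 libraries per group, and the labels call them biological replicates without saying whether each stands for 1 mouse. The p-values therefore measure the spread between these libraries, which may be technical in part.

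A granzyme is made with a short propeptide, which cathepsin C removes, and is then kept bound to the proteoglycan serglycin until the granule is released onto a target cell. Perforin lets it reach the target's cytosol, where granzyme B cleaves after aspartate and sets off caspases, while granzymes A and K cleave after basic residues. In mice Gzmb lies on chromosome 14 beside Gzmc to Gzmg and Gzmn, a group of close relatives whose substrates are less well known, and Gzma lies beside Gzmk on chromosome 13. Signals through the T cell receptor and IL-2 are known to induce many of these genes in cultured CD8 T cells.

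The sequence just upstream of the granzyme starts is shown first, since 5 neighbours are alike there. These 5 were higher in aged cells, but so were Gzma and Gzmb, whose upstream sequence differs. A link between the sequence and the change was not tested. The choice to show this stretch was made after the sequences were seen. RefSeq promoters on GRCm38.p6 were found for 9 of the 9 genes, and the 250 bases before each start were compared. Among Gzmc, Gzmd, Gzme, Gzmf and Gzmg the 10 pairs were 71.5% to 94.8% identical, against 46.8% to 54.5% in the 26 other pairs. All pairs with Gzmn belong to the latter, so its annotated start lies in different sequence. The stretches below are on the minus strand and read 5′ to 3′. Capitals mark matches to the RUNX motif TGTGGT and to the cAMP response element TGACGTCA, and in Gzmd and Gzme the single base that departs from the element.
Gzmc, chr14:56234658-56234784: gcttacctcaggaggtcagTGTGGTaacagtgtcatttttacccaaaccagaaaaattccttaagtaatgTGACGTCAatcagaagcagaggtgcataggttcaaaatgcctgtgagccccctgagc
Gzmd, chr14:56132597-56132724: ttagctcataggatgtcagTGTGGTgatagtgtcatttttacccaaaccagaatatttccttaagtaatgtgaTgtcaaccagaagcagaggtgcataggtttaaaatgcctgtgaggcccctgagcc
Gzme, chr14:56120630-56120757: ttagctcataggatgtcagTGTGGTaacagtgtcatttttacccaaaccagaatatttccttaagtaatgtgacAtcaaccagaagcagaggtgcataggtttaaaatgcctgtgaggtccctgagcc
Gzmf, chr14:56211432-56211559: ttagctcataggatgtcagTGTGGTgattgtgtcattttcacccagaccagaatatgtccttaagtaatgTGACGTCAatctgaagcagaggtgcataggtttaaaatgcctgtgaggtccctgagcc
Gzmg, chr14:56159599-56159726: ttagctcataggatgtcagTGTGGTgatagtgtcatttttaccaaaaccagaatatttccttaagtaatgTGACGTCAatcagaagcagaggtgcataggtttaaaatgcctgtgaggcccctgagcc

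Counting from 1 at the 5′ end of TGACGTCA, the difference was C4T in Gzmd and G5A in Gzme, and Gzmc, Gzmf and Gzmg held all 8 letters. The 100 bases before the starts of Gzmb, Gzma and Gzmk, the best studied granzymes and the member that fell, are shown for comparison and hold no TGACGTCA. In Gzmb capitals mark TGTGGT and the AP-1 motif TGANTCA, in Gzma TGTGGT on the other strand, and in Gzmk the T-box motif GGTGTGA.
Gzmb, minus strand, chr14:56262335-56262434: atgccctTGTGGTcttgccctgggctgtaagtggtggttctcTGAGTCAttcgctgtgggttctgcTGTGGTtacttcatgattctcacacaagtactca
Gzma, minus strand, chr13:113100982-113101081: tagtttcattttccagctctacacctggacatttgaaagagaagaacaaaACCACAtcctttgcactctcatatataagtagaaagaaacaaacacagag
Gzmk, minus strand, chr13:113180966-113181065: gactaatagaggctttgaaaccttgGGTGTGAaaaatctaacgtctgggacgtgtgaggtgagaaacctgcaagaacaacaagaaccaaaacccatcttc

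On both strands, TGTGGT was present in 7 of the 9 granzyme windows and in 14% of 32851 RefSeq promoter windows of 250 bases. TGACGTCA was present in 3 of 9 and in 1.5% of all, TGANTCA in 1 and in 6.7%, GGTGTGA in 1 and in 3.3%, and the STAT motif TTCNNNGAA in 0 and in 7.0%. Matches overlapped in 0 places in the granzyme windows. The neighbours share ancestry, so their matches are not independent, and a match is a string of letters and not a measured site.

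Library totals ran from 1952552 to 2785915 reads, and 1 read was worth 0.359 to 0.512 CPM (reads scaled to a library total of 1000000). Where a gene has 0 reads, its true level may still reach 3 reads, or 1.08 to 1.54 CPM, for counting error only, since reads without molecular identifiers are not independent molecules. The libraries were made from 3′ ends, so a level does not grow with transcript length. Levels of different genes can then be set side by side, but only roughly, since how reads were aligned and counted is not given. Where genes share similar ends, as from Gzmd to Gzmn, such comparison is less certain still. All 5 listed markers were measured, Cd8a and Cd8b1 of CD8 T cells and Cd3d, Cd3e and Cd3g, which all T cells share. The summed level of the 5 was 1891 to 1976 CPM in young and 1452 to 1628 CPM in aged libraries. Of these, 4 fell and Cd8a did not pass. The T cells' label was thus borne out by markers, while Cd4 had at most 0.4 CPM and the B cell genes Cd79a and Ms4a1 and the macrophage genes Lyz2 and Adgre1 were at 0 in every library. Other genes of these lists had reads. Zbtb7b, of the CD4 T cell list, had 16.9 to 23.0 CPM in young and 8.94 to 14.9 CPM in aged libraries. The B cell gene Cd79b had 2.51 to 9.99 and 0 to 1.53 CPM. The myeloid gene Itgam had 1.44 to 4.35 and 0 to 0.94 CPM, and Csf1r had 7.06 CPM in Aged replicate 3 alone. Natural killer cells also store granzymes. Their defining receptor Ncr1 was at 0 in all libraries but Young replicate 3 (0.384 CPM) and Klra8 at 0 in all, and their 6 listed markers summed to 76.5 to 78 CPM in young and 64.0 to 109.7 CPM in aged libraries. Fcer1g, 1 of these 6, was called higher (log2 fold change 0.47), with overlapping groups and no call under 3 other library scalings. The summed markers of CD4 T cells were 19.6 to 23.7 CPM in young and 11.3 to 19.0 CPM in aged libraries, of mast cells and basophils 11.9 to 17.2 and 10.8 to 16.9 CPM, of B cells 2.51 to 9.99 and 0 to 1.53 CPM, and of myeloid cells 2.15 to 4.78 and 1.54 to 8.47 CPM. Klrb1c, another of the 6, was called lower under those scalings (-0.57 with TMM). Among 3 tested natural killer markers 1 was thus called higher and 0 lower, against 0 higher and 1 lower under the other scalings, and in each of these 4 other lists 1 gene was lower and 0 higher. Their part in the granzyme values was not tested.

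The comparison asks how granzyme transcripts in activated CD8 T cells differ with the age of the mouse. Of the 9 genes 7 rose in aged cells and 1, Gzmk, fell, by limma at an adjusted p under 0.05 on log2(CPM + 1). Gzmn was too low to be tested. Over all 10511 tested genes limma called 16.2% higher and 12.5% lower, or 1701 and 1313 genes. That balance turns with the library scaling, to 1432 higher and 1548 lower with TMM, 1451 and 1531 with RLE and 1465 and 1495 with upper-quartile scaling, while the 8 granzyme calls did not change. The 7 that rose had every aged library above every young one, which held for 22.5% of tested genes, and Gzmk had every aged library below, which held for 18.3%. For 5 of them (Gzmc, Gzmd, Gzme, Gzmf and Gzmg) the rise was at least 1 on the log2 scale. Of all tested genes, 1.86% were called higher with a rise of at least 1. Gzme and Gzmc lie near that limit. Gzme was at 0.98 with TMM and 0.89 without Young replicate 3, and Gzmc at 0.97 without Young replicate 1. In bulk RNA, more cells that express a gene and more transcript per cell cannot be told apart.

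**Figure D1:**
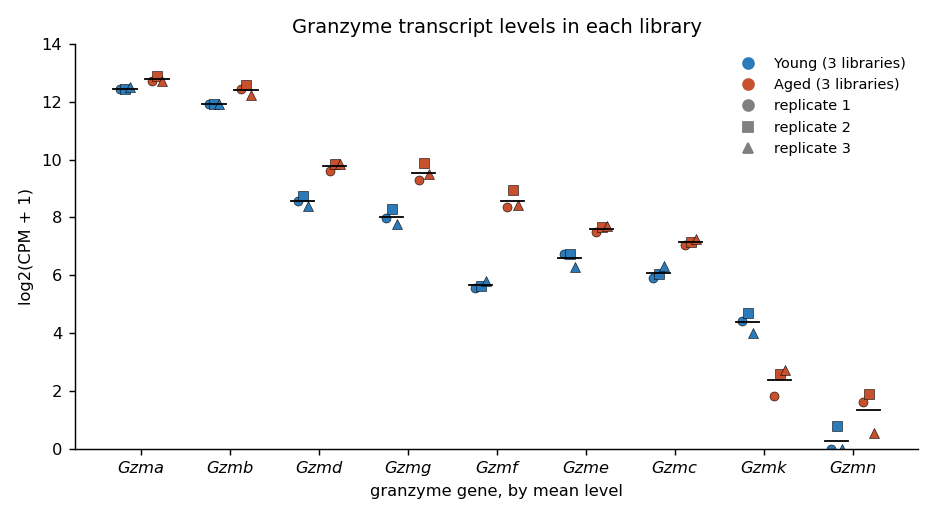
Level of each granzyme in the 6 libraries, as log2(CPM + 1), with genes ordered by mean level, young in blue, aged in orange, a symbol per replicate number and a bar at each group mean. Aged points lie above all young points for Gzma, Gzmb, Gzmd, Gzmg, Gzmf, Gzme and Gzmc and below them for Gzmk, and the groups overlap for Gzmn.

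Gzma and Gzmb carried most of the family's transcripts. Gzma (ENSMUSG00000023132, chromosome 13, 113093825 to 113100981, minus strand, 6 exons, GRCm38), the trypsin-like granzyme, had 5510, 5529 and 5825 CPM in Young replicates 1, 2 and 3 and 6668, 7659 and 6761 CPM in the aged ones. The groups did not overlap, and Aged replicate 2 was the highest library. The means were 5621 ± 177 and 7029 ± 547 CPM (SD, n = 3 per group), 1.25-fold higher in aged cells, with a log2 fold change of 0.32 ± 0.05 (SE) and a limma adjusted p of 0.000102. By mean level Gzma was the gene of rank 10 in young and of rank 4 in aged cells. This was the smallest rise among the 7 granzymes.

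Gzmb (ENSMUSG00000015437, chromosome 14, 56258838 to 56262260, minus strand, 5 exons), the protease that starts caspase-dependent death in targets, had 3856, 3896 and 3842 CPM in the young libraries and 5573, 6155 and 4771 CPM in the aged ones. The young libraries differed little, at an SD of 27.9 CPM, and the aged ones spread widely, at an SD of 695 CPM, while still lying above every young value. The rise was 1.42-fold, or 0.50 ± 0.06 (SE) on the log2 scale (limma adjusted p = 9.24e-06), and the gene moved from rank 26 to rank 9.

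The relatives next to Gzmb rose more in fold terms from lower levels. Gzmc (chromosome 14, 56231441 to 56234656) had 59.1, 64.6 and 78.4 CPM in young and 132, 140 and 150 CPM in aged libraries, 2.09-fold higher. Gzmd (chromosome 14, 56129556 to 56132608) had 381, 427 and 335 CPM in young and 773, 925 and 926 CPM in aged libraries, 2.30-fold higher. For both, even the lowest aged library exceeded the highest young one by a wide margin. Their log2 fold changes were 1.06 ± 0.11 and 1.20 ± 0.08 (SE), with limma adjusted p of 5.51e-07 and 7.21e-09.

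Gzme (chromosome 14, 56117626 to 56120625) had 105, 105 and 78 CPM in young and 181, 200 and 206 CPM in aged libraries, 2.04-fold higher (log2 fold change 1.03 ± 0.11, limma adjusted p = 6.69e-07). Gzmg (chromosome 14, 56156582 to 56159579) had 250, 310 and 220 CPM in young and 626, 941 and 718 CPM in aged libraries, 2.93-fold higher (log2 fold change 1.54 ± 0.12, limma adjusted p = 2.37e-08). In both genes Young replicate 3 was the lowest library. Gzmd, Gzme, Gzmf and Gzmg encode granule proteases of activated cytotoxic T cells whose targets are not well defined.

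Gzmf stood out in size. Its gene (ENSMUSG00000015441, chromosome 14, 56205263 to 56211417, minus strand, 5 exons) had 45.6, 48.1 and 54.9 CPM in young and 328, 491 and 346 CPM in aged libraries, from 105 to 143 and 641 to 1282 reads. The lowest aged library was far above the highest young one, and Aged replicate 2 again led. The rise was 7.84-fold, or 2.93 ± 0.12 (SE) on the log2 scale with a 95% interval of 2.67 to 3.18 (limma adjusted p = 9.76e-12). The intervals of the other risers ended at or below 1.79, that of Gzmg. An exon of Gm4022, on the other strand, overlaps one of Gzmf. Whether counting used strand is not given in the sources used here, which adds uncertainty to the value.

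Gzmn (chromosome 14, 56165797 to 56174599), known mainly from the testis, was close to undetected. It had 0, 2 and 0 reads in the young libraries and 4, 7 and 1 in the aged ones, or 0 to 0.718 and 0.471 to 2.68 CPM. The groups overlapped, and most values lay at or under the floor of a library. Pooled over libraries, 2 reads against 12 gave a ratio of 6.90 with an exact 95% interval of 1.54 to 63.5 for counting error alone. Its mean of 0.987 CPM missed the filter of 1 CPM, and with no filter limma called it higher (log2 fold change 1.09 ± 0.36 SE, adjusted p = 0.0352).

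Reads may be divided among the genes from Gzmd to Gzmn, because their transcripts resemble each other where these libraries were read. In the last 200 bases of the GENCODE M21 transcripts, the 10 pairs among Gzmd, Gzme, Gzmf, Gzmg and Gzmn were 79.0% to 92.1% identical, and the 26 other pairs of granzymes 43.9% to 52.6%. Of the 50-base windows in the last 300 bases, 10.0% in Gzmd, 11.6% in Gzme, 12.7% in Gzmf, 25.1% in Gzmg and 21.5% in Gzmn occurred unchanged in a transcript of another gene. For Gzmf these were Gzmd and Gzmg. For Gzma, Gzmb, Gzmc and Gzmk the share was 0.0%. The values of the 5 genes taken singly are therefore uncertain, and their sum is less so. Summed, they had 781, 891 and 687 CPM in young and 1910, 2561 and 2196 CPM in aged libraries. The sum was 2.82-fold higher, with means of 787 ± 102 and 2222 ± 326 CPM and no overlap between groups. It was not tested, being a score over chosen genes. Gzmc, which shares none of these windows, was 2.09-fold higher on its own.

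Gzmk went the other way. Granzyme K, a trypsin-like protease found in memory-type CD8 T cells, is encoded beside Gzma on chromosome 13 (ENSMUSG00000042385, 113171608 to 113225908, minus strand, as annotated by GENCODE M21, whose gene reaches further upstream than the RefSeq start used for the promoter). It had 20.4, 24.8 and 14.99 CPM in the young and 2.56, 4.98 and 5.65 CPM in the aged libraries, from 155 reads in young and 30 in aged cells in total. Every aged library was below every young one, and Aged replicate 1 was lowest with 5 reads. The mean was 4.56-fold lower in aged cells, and the gene fell by 1.99 ± 0.28 (SE) on the log2 scale (limma adjusted p = 2.88e-05). With so few reads the size of the fold is uncertain: the fall was 1.41 with a pseudocount of 5 and 2.22 by DESeq2 on the recovered reads.

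In order of level the family ran Gzma, Gzmb, Gzmd, Gzmg, Gzme, Gzmc, Gzmf, Gzmk and Gzmn in young cells, where the neighbours Gzme and Gzmc overlapped in their library values and the other neighbours did not. In aged cells the order was Gzma, Gzmb, Gzmd, Gzmg, Gzmf, Gzme, Gzmc, Gzmk and Gzmn. There Gzmd and Gzmg overlapped, as did Gzmk and Gzmn. The change of order came from Gzmf, which passed Gzmc and Gzme. The places of Gzmd, Gzme, Gzmf, Gzmg and Gzmn are uncertain, since reads may be divided among them.

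The 9 granzymes together made up 1.02% to 1.04% of all reads in young and 1.39% to 1.65% in aged libraries, 1.44-fold more by the means. Within that sum the share of Gzma was 54.3% ± 1.35 in young and 47.2% ± 1.27 in aged cells (SD, n = 3), without overlap. The share of Gzmb was 37.3% ± 0.482 and 36.9% ± 2.35, and the groups overlapped. Gzmd, Gzme, Gzmf, Gzmg and Gzmn took 7.59% ± 0.994 of the sum in young and 14.9% ± 1.33 in aged cells. Shares of a whole move together, so these are not separate findings. Inside the group of 5, Gzmf made up 6.41% ± 1.39 in young and 17.4% ± 1.72 in aged cells, Gzmd 48.5% ± 0.500 and 39.6% ± 3.10, and Gzme 12.2% ± 1.09 and 8.89% ± 0.923. Gzmg held 32.9% ± 1.66 and 34.1% ± 2.32, with overlap.

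**Figure D2:**
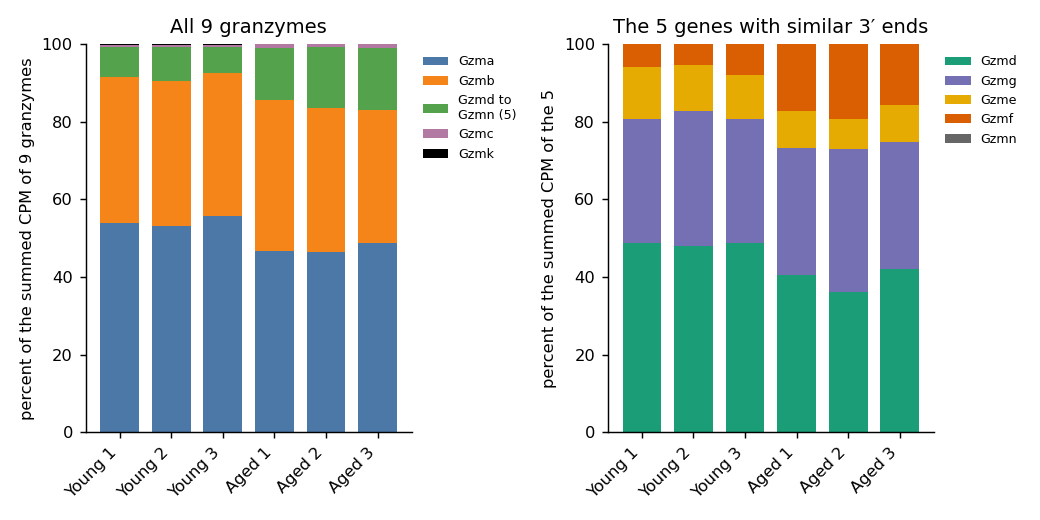
Stacked bars of the percent each gene contributes in each library, to the summed CPM of all 9 granzymes on the left and to the summed CPM of the 5 genes with similar 3′ ends on the right. On the left the band of the 5 grows from 6.58% to 8.57% in young to 13.4% to 15.8% in aged libraries, and on the right the band of Gzmf grows from 5.40% to 7.99% to 15.8% to 19.2%.

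Whether the members changed by different amounts was tested with the log2 ratio of each to Gzmb in the same library, on CPM + 1, which no library-wide scaling can move for abundant genes. Gzmf stood at -6.26 ± 0.14 in young and -3.84 ± 0.22 in aged cells (SD, n = 3), a difference of 2.43. The difference was 1.04 for Gzmg, 0.70 for Gzmd, 0.56 for Gzmc and 0.53 for Gzme. It was -0.18 for Gzma and -2.49 for Gzmk. For these 7 genes the groups did not overlap, and each two-sided exact permutation p was 0.10, the smallest that 3 against 3 libraries allow (adjusted p = 0.114 over 8 ratios). The test could thus not pass 0.05, and the differences describe these libraries only. For Gzma the groups nearly touched, with a lowest young value of 0.505 and a highest aged value of 0.503. For Gzmn the difference was 0.59 and the exact permutation p 0.20.

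**Figure D3:**
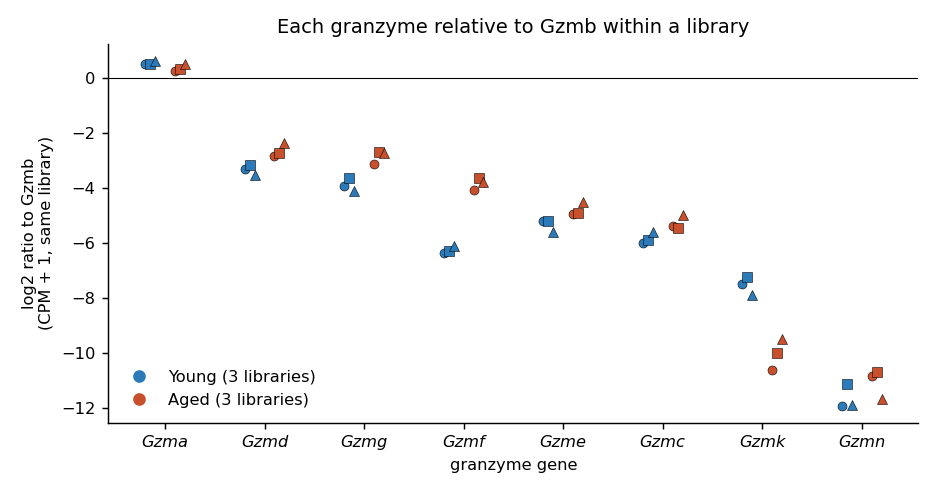
Log2 ratio of each granzyme to Gzmb within each library, on CPM + 1, with young in blue and aged in orange (symbols by replicate number, circle 1, square 2, triangle 3). The aged points lie above the young for Gzmd, Gzmg, Gzmf, Gzme and Gzmc, with the widest gap at Gzmf (2.43), and below the young for Gzma and Gzmk.

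Other tested genes within 500 kb of a granzyme did not share one direction. Of 92 annotated genes that start within 500 kb of a granzyme, 23 were tested, of which 6 rose and 5 fell. Over all tested genes 16.2% rose and 12.5% fell. Next to Gzma and Gzmk, Mtrex, an RNA helicase of the nuclear exosome, had means of 97.8 ± 14.4 (young) and 143 ± 14.6 CPM (aged), and Esm1, a secreted proteoglycan, 71.6 ± 7.03 and 37.7 ± 10.7 CPM. Mtrex and Dhx29, another helicase, rose by 0.55 and 0.62 on the log2 scale, and Esm1 fell by 0.94. The called genes on chromosome 14 lay outside the granzyme cluster, with Khnyn at 377.3 kb and Nop9 at 516.6 kb from the Gzmb start. Nop9, a ribosome biogenesis factor, rose by 0.82, Tm9sf1 by 0.82, Ipo4 by 0.51 and Mphosph8 by 0.48. Khnyn fell by 0.68, Parp4 by 0.45, Dhrs1 by 0.45 and Mdp1 by 0.40. The calls of Ipo4, Tm9sf1, Dhrs1 and Mdp1 were lost under 9, 6, 7 and 7 of 17 alternatives, and those of Mtrex, Dhx29, Nop9, Mphosph8, Esm1 and Khnyn under 0. The call of Parp4 was lost without Young replicate 1. The proteases of mast cells and neutrophils that share the locus were nearly silent. Mcpt1, Mcpt2, Mcpt4, Mcpt9 and Cma2 were at 0 in every library, and Ctsg had at most 2.7 CPM. Mcpt8, the tested gene outside the family nearest to the Gzmb start (177.0 kb), had 7.0, 6.5 and 6.5 CPM in young libraries. In aged libraries it had 7.7, 9.2 and 16.9 CPM, and it did not pass (log2 fold change 0.61, limma adjusted p = 0.122).

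**Figure D4:**
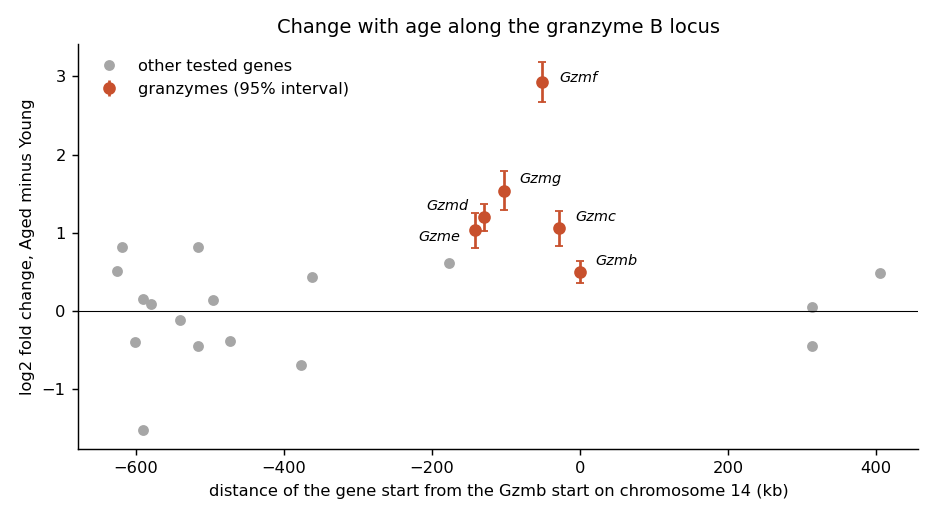
Log2 fold change (Aged minus Young) of tested genes around Gzmb on chromosome 14, by distance of the gene start in kb (negative towards lower positions), with granzymes in orange with 95% intervals and other genes in grey. The 6 tested granzymes lie within 141.6 kb and above 0, from 0.50 at Gzmb to 2.93 at Gzmf, and the other genes lie on both sides of 0.

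Genes that package and activate granzymes had a median change near that of all tested genes. Of 8 listed genes 7 were tested, of which 1 was called higher and 1 lower. Of all tested genes 16.2% were called higher and 12.5% lower. The median change of the list was 0.00 on the log2 scale, where that of all tested genes was 0.03. Ctsc, the cathepsin that removes the propeptide, had 45.6, 47.0 and 42.3 CPM in young and 57.4, 39.5 and 40.0 CPM in aged libraries. Srgn, the serglycin core protein, had 651, 688 and 597 CPM and 624, 775 and 519 CPM. Neither passed, and the groups overlapped in both. Igf2r, a mannose 6-phosphate receptor that sorts granule enzymes and can take up granzyme B, fell by 0.50 on the log2 scale (limma adjusted p = 0.000111), while Nagpa, which finishes the mannose 6-phosphate tag, was higher by 0.42 (limma adjusted p = 0.0409). The call of Nagpa was lost under all 3 other scalings (adjusted p = 0.0652 to 0.069), and that of Igf2r was not.

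Among 9 tested genes of the pore and of granule release, 0 rose and 2 fell, with a median of -0.22. Those that fell were Nkg7, a granule membrane protein, by 0.19 and Stxbp2, the syntaxin-binding protein Munc18-2, by 0.32. Of all tested genes 16.2% were called higher and 12.5% lower, so counts in lists this small say little. Prf1, which encodes perforin, had 615, 664 and 581 CPM in young and 568, 570 and 790 CPM in aged libraries and did not pass. Under the 3 other scalings Rab27a, a GTPase of granule docking, was also called lower, with a log2 fold change of -0.33 with TMM. The listed serpins, relatives of known inhibitors of granule proteases, moved both ways, with 3 of 5 lower and 1 higher and a median of -0.63. Serpina3g, Serpinb6a and Serpinb6b fell by 1.49, 0.70 and 0.63, the last with overlapping groups. Serpinb9b, a relative of Serpinb9, had 7.8, 12.2 and 7.3 CPM in young and 26.6, 21.1 and 33.4 CPM in aged libraries. It rose by 1.48 on the log2 scale. Serpinb9, the granzyme B inhibitor that protects the T cell itself, had a log2 fold change of 0.24 that did not pass (limma adjusted p = 0.208). These serpins are close paralogs, and their ends were not compared here.

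**Figure D5:**
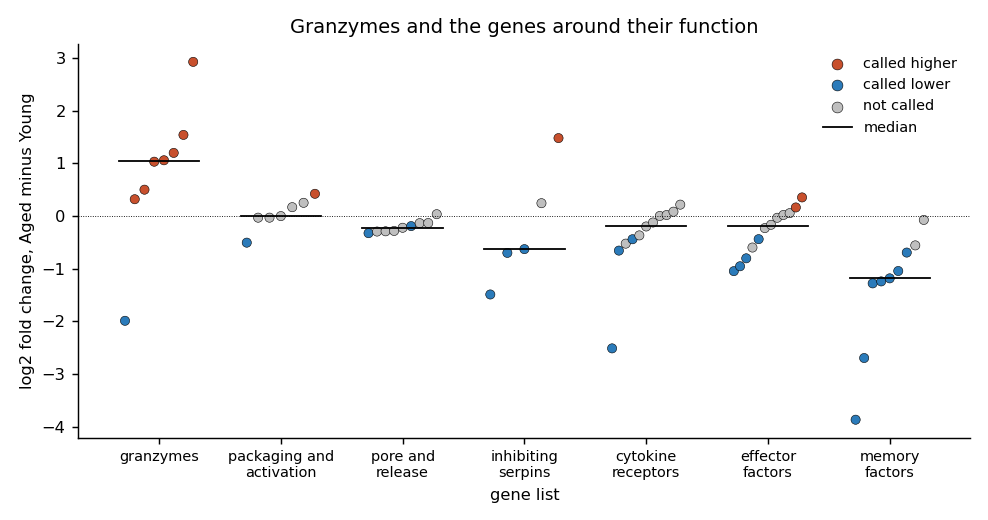
Log2 fold change (Aged minus Young) of every tested gene in 7 lists, orange where limma called it higher, blue where lower and grey where not called, with a bar at each median. The granzymes have a median of 1.05 over the 8 tested, the packaging genes 0.00, pore and release -0.22, serpins -0.63, cytokine receptors -0.20, effector factors -0.20 and memory factors -1.18.

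Receptors for the cytokines that induce granzymes were lower or not called. Of 11 tested, 0 rose and 3 fell, with a median of -0.20, where 16.2% of all tested genes rose and 12.5% fell. None of the 3 chains of the IL-2 receptor passed the test, and their log2 values differed by -0.20 for Il2ra, 0.00 for Il2rb and -0.12 for Il2rg. Il2ra was called lower under the 3 other scalings, at -0.25 with TMM. Il7r, the IL-7 receptor chain, was called lower with TMM (-0.42) and upper-quartile scaling, which made 5 lower receptors. Il18r1, a chain of the IL-18 receptor, had 190, 201 and 177 CPM in young and 33.8, 19.9 and 49.9 CPM in aged libraries. It fell by 2.51, its partner Il18rap by 0.66 and Il12rb2 by 0.44.

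Transcription factors known to favour granzyme expression moved in both directions, with 2 of 12 higher, 4 lower and a median of -0.20. The shares over all tested genes were 16.2% higher and 12.5% lower. Eomes, a T-box factor of killer cells, had 159, 163 and 136 CPM in young and 178, 179 and 230 CPM in aged libraries and rose by 0.35. Id2 was called higher at 0.16 but under 0 of the 3 other scalings, where Rbpj was called lower (-0.22 with TMM). Prdm1, which encodes BLIMP-1, had 124, 127 and 108 CPM in young and 49.2, 55.2 and 69.7 CPM in aged libraries and fell by 1.04. Runx3, Stat4 and Irf4 fell by 0.44, 0.95 and 0.80. Tbx21, which encodes T-bet, had a log2 fold change of 0.02 that did not pass.

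Of 9 factors tied to memory or resting T cells, 7 fell and 0 rose, with a median of -1.18. Those that fell were Klf2, Tcf7, Foxp1, Bach2, Bcl6, Foxo1 and Lef1. Over all tested genes 12.5% fell and 16.2% rose. Bach2, a repressor of effector programmes, had 30.4, 34.1 and 32.7 CPM in young and 12.3, 13.03 and 14.1 CPM in aged libraries. The call of Bcl6, at 0.471 to 3.91 CPM, was lost under 8 of 17 alternatives. For Myb and Id3 the differences of -0.07 and -0.56 on the log2 scale missed the threshold. Earlier results from these libraries were known when this list and the others were drawn up, so their directions are no independent support.

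The last granzyme gene, Gzmm, lies apart from both loci and encodes a protease that cleaves after methionine. It had 3.0, 5.7 and 7.3 CPM in young and 4.6, 5.0 and 6.1 CPM in aged libraries. The groups overlapped, and at a log2 fold change of 0.03 it did not pass (limma adjusted p = 0.967).

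Genes with the most similar profiles were sought among 7922 tested genes outside the family, by the mean absolute difference of centred log2(CPM + 1) values over the 6 libraries. Closest to the sum of the 5 relatives were Ung, a DNA repair glycosylase (0.13), Abhd17c (0.13), the cell cycle factor Mybl2 (0.14), Stk32c (0.16) and Spp1, which encodes osteopontin (0.17). Ung had 16.95, 17.2 and 11.5 CPM in young and 33.3, 45.6 and 36.2 CPM in aged libraries. Closest to Gzmb were Surf4, a cargo receptor of the secretory pathway (0.03), Lat2, Hspa4, Eif1ad and Bub3 (each 0.04 to 0.05). Like Gzmb, Surf4 was highest in Aged replicate 2 and lowest of the aged libraries in replicate 3, at 206 and 159 CPM. For Gzmk the nearest were Pou2f2 (0.20), Samhd1 (0.22), Tubb2b (0.22), St3gal6 (0.26) and Aldoc (0.26), less close than for the other 2 references. With 2 groups of 3 libraries, much of such likeness is the difference between the groups itself.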

How the data were processed

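RNA from 6 libraries (3 Young, 3 Aged) was read from the 3′ end with the QuantSeq kit, per the labels' protocols. The build was GRCm38 (mm10), per the submitters' processing notes. The sources used here do not name the aligner, the counter, the strand setting or the treatment of reads that match several genes. The deposited values are CPM per Ensembl gene, summing to 1000000 per library. Of the values above 0, 100% were whole multiples of the smallest within 0.001 reads, so whole reads were recovered. Of 25655 identifiers 1 is blank in every file and was left out. The value column in the file of Aged replicate 2 is headed as replicate 3, and the sample record was followed. Symbols came from a table of gene names.

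The test was limma 3.58.1 with an intensity trend (R 4.3.3) on log2(CPM + 1), two-sided, for the 10511 genes whose mean over the libraries reached 1 CPM, with age group as the only term and Benjamini-Hochberg adjustment over all tested genes. A call needs an adjusted p under 0.05. Fold changes on the log2 scale are Aged minus Young and understate changes of low genes, and plain folds are ratios of mean CPM. Replicates of a group differed beyond counting noise (chi-square per degree of freedom 1.72 to 2.9). Alternatives were RLE, TMM and upper-quartile scaling, other filters and pseudocounts, edgeR 4.0.16, DESeq2 1.42.0 and limma-voom on recovered reads, a replicate block, and leaving out each library. The fit was also run on simulated data with the same relative spread for all genes, which says little about how it performs on these libraries. Sequence identity was computed with Biopython 1.88 from global alignments, GENCODE M21 transcripts (the longest coding one per gene) and RefSeq promoters.

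The 9 genes and all lists were chosen with earlier results of these data known. The genes named are the 9 members, called genes of the lists, tested genes that start within 500 kb of a member, Gzmm and, among genes averaging 3 or more on the log2 scale, the 5 nearest profiles for each of the sum, Gzmb and Gzmk. Genes named beyond these, such as uncalled list members and markers, were chosen after their values were seen.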

Additional observations from a re-analysis of the deposited data

How the results depend on the processing

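The calls of 7 granzymes higher and 1 lower were kept by the same genes under all 17 alternatives of the fit, so all 136 combinations of member and alternative held their direction and their side of the threshold. With no filter Gzmn was called higher too, which made 8. The log2 fold change of Gzmf ran from 2.75 to 3.04, of Gzmb from 0.42 to 0.60, of Gzma from 0.26 to 0.36 and of Gzmk from -2.22 to -1.41. The fold of the summed 5 genes was 2.72 to 2.74 under the other scalings and 2.61 to 3.03 without a library. Over all genes DESeq2 called 952 higher and 1017 lower, against 1701 and 1313 by limma. With RLE scaling limma called 1451 and 1531. The cause of the difference between the methods was not tested. Without 1 library, 1323 to 1553 genes were called higher and 1010 to 1193 lower. Other scalings moved the median of all genes from 0.032 to between -0.017 and -0.009. Replicate numbers 1 to 3 are shared by both groups, but same-numbered libraries did not deviate together (r = 0.021, 0 and 0.003 across genes), and not every library correlated best with its own number. With the replicate block, 7 granzymes were called higher and 1 lower, and 1725 and 1336 of all genes. The difference of Gzmn to Gzmb was -0.15 with a pseudocount of 5 against 0.59, and that of the Gzmb share, -0.429 percentage points, ran from -1.496 without Aged replicate 1 to 0.829 without Aged replicate 3. Gzmn had at most 7 reads in a library, and Gzmk in aged cells rests on 5 to 13 reads a library. Leaving out a library ended 10 calls among list and marker genes: Nkg7 (Young replicate 2 or Aged replicate 1), Stxbp2 (those, Young replicate 3 or Aged replicate 2), Eomes (either replicate 3), Id2 (Young replicate 3 or Aged replicate 2), Il12rb2 (Young replicates 1 or 3, Aged replicates 1 or 2), Nagpa (any but Young replicate 1), Bcl6 (any but Aged replicate 1), Fcer1g (any but Aged replicate 2), Zbtb7b (Young replicates 1 or 2, Aged replicate 3) and Itgam (Young replicates 1 or 3, Aged replicate 1). DESeq2 did not call Serpinb6b or any of these 10 but Nkg7 and Stxbp2.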

Other observations

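Genes whose protein products granzyme A or B is known to cleave, or that partner such proteins, were listed apart, since a T cell that holds granzymes in granules also makes these proteins. Of 16 tested, 5 rose and 0 fell, where 16.2% of all tested genes rose and 12.5% fell. The median change of the 16 was 0.27 on the log2 scale, where that of all tested genes was 0.03. Set, the namesake of the complex that granzyme A attacks, had 1004, 958 and 1063 CPM in young and 1722, 1768 and 1836 CPM in aged libraries and rose by 0.82 on the log2 scale (limma adjusted p = 4.77e-09). Hmgb2, a member of the same complex, rose by 0.56, and Nme1, a nuclease of it, by 0.35. Apex1, Anp32a and Trex1, also listed and of this complex, were not called, at 0.41, -0.12 and -0.23. Lmnb1, which encodes lamin B1, had 187, 189 and 225 CPM in young and 365, 373 and 369 CPM in aged libraries and rose by 0.88, and Parp1 rose by 0.49. The granzyme B substrate Bid differed by 0.41 on the log2 scale and missed the threshold.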
